A study of Mus musculus with 2 samples.

Results

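The 7 genes followed here, in single cells of the mouse lateral hypothalamic area, move glutamate across membranes or turn it into glutamine. They were chosen by name: 3 vesicular glutamate transporters (Slc17a6, Slc17a7 and Slc17a8), 3 plasma membrane glutamate transporters (Slc1a1, Slc1a2 and Slc1a3) and the enzyme glutamine synthetase (Glul), 7 of 28692 genes. The tissue was microdissected from slices of C57BL/6 mice at postnatal day 30, all 5 of them littermates. One library was labelled male and pooled 3 animals, the other was labelled female and pooled 2 animals, and both were made with the 10x Chromium v2 chemistry, which counts molecules by unique molecular identifiers (UMIs). The cells of one animal could not be told from those of another in its pool.

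Neurons release glutamate from vesicles that are filled by the vesicular transporters, and the presence of one of these genes is the usual sign of a glutamatergic neuron. Released glutamate is taken up by the plasma membrane transporters Slc1a2 (GLT-1) and Slc1a3 (GLAST), for which astrocytes are best known, while Slc1a1 (EAAC1) is known mainly from neurons. Inside astrocytes glutamine synthetase joins glutamate with ammonia, and the glutamine is passed back to neurons, which is the glutamate-glutamine cycle. The lateral hypothalamic area holds both glutamatergic and GABAergic neurons, and among them the neurons of the peptides orexin (Hcrt) and melanin-concentrating hormone (Pmch).

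In GENCODE M21 on GRCm38, Slc17a6 lies on chromosome 7 from 51622006 to 51671119, Slc17a7 on chromosome 7 from 45163949 to 45176142, Slc17a8 on chromosome 10 from 89574020 to 89621253, Slc1a1 on chromosome 19 from 28835049 to 28913960, Slc1a2 on chromosome 2 from 102658659 to 102790784, Slc1a3 on chromosome 15 from 8634124 to 8710764 and Glul on chromosome 1 from 153899944 to 153909723. The promoters of Slc1a1, Slc1a3 and Glul are shown because these genes marked different glial classes: Slc1a3 was highest in astrocyte-like cells, Glul was high in astrocyte-like, mature oligodendrocyte-like and endothelial-like cells, and Slc1a1 was highest in newly formed oligodendrocyte-like cells. Each is the 250 bases before the RefSeq start on GRCm38.p6, read along the gene's strand: chr19:28834885-28835134 on the + strand for Slc1a1, chr15:8710808-8711057 on the - strand for Slc1a3 and chr1:153899679-153899928 on the + strand for Glul. Capitals mark matches on either strand to ACAAT (the core bound by SOX factors), TTGGC (a site of NFI factors) or CAGCTG (an E-box).
Slc1a1: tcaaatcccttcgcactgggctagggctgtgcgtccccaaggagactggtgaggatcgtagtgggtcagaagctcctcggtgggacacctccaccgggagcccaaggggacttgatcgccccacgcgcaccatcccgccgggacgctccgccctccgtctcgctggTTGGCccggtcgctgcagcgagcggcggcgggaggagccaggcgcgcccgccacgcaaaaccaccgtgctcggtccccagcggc
Slc1a3: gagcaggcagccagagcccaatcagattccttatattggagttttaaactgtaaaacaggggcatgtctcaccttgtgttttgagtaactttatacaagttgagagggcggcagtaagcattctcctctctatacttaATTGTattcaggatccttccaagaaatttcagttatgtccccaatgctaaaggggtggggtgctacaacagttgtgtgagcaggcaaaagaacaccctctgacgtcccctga
Glul: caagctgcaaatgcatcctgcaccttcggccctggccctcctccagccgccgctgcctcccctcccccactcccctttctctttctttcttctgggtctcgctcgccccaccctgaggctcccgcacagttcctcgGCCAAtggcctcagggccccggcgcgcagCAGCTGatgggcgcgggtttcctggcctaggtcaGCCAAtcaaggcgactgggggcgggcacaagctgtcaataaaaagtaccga
Slc1a1 held 1 match to TTGGC, Slc1a3 held 1 to ACAAT, and Glul held 2 to TTGGC and 1 to CAGCTG. The RefSeq start of Slc1a1 lies 86 bases inside the GENCODE gene. The end of its window, with the TTGGC match, thus lies within the gene by GENCODE. Windows of this length before 27025 RefSeq starts held ACAAT in 28.3%, TTGGC in 41.9% and CAGCTG in 12.8%, so a match is a description of the letters and not a site.

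The libraries held 3439 and 3793 barcodes with 23151801 and 27437142 UMIs, given here and throughout as labelled male, then labelled female. Genes of the sex chromosomes contradicted each label: in the named classes Xist had 18897 and 30 UMIs, and 4 Y-linked genes together had 0 and 7028. The labels are therefore used only as names of libraries, and 18 barcode sequences occurred in both. After filters, 3181 and 3515 cells formed 27 clusters, made without the 7 genes, of which 25 could be named from markers of cell types and 2 could not. Neuron-like cells numbered 2032 and 2250, astrocyte-like cells 118 and 185, oligodendrocyte precursor-like cells 81 and 95, newly formed oligodendrocyte-like cells 74 and 104, mature oligodendrocyte-like cells 608 and 595, microglia-like cells 76 and 45, endothelial-like cells 77 and 68, mural-like cells 10 and 33, and fibroblast-like cells 23 and 33. Each class was named from its own marker list, so that the presence of neurons, glia and vessel cells does not test the label of the tissue. Levels are UMIs of a gene in each 1000000 UMIs of all genes summed over the cells of a class in a library (CPM), the brackets hold 95% exact Poisson intervals that cover counting error only, and the 2 libraries are the only replicates. Levels of different genes are not ranked against one another, and a ratio of 2 genes is compared only between groups of cells.

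Slc1a2 was highest in astrocyte-like cells, at 3788 CPM (3568 to 4019) and 3995 CPM (3825 to 4171), and every astrocyte-like cell of either library held at least 1 UMI of it. Oligodendrocyte precursor-like cells came next, at 923 CPM (795 to 1067) and 1003 CPM (880 to 1137). Neuron-like cells were lowest, at 112 and 138 CPM. The other 6 classes lay between 146 and 260 CPM, and their counting intervals overlapped one another within each library. Slc1a3 followed the same top rank, with 3093 CPM (2894 to 3302) and 3407 CPM (3250 to 3570) in astrocyte-like cells. For Slc1a3 the second place was held by fibroblast-like cells, at 316 CPM (223 to 436) and 586 CPM (464 to 730), followed by oligodendrocyte precursor-like cells at 281 CPM (212 to 365) and 269 CPM (208 to 343). Those intervals overlapped in the library labelled male and not in the other. The lowest level was again that of the neurons, at 20.5 and 25.3 CPM.

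**Figure D1:**
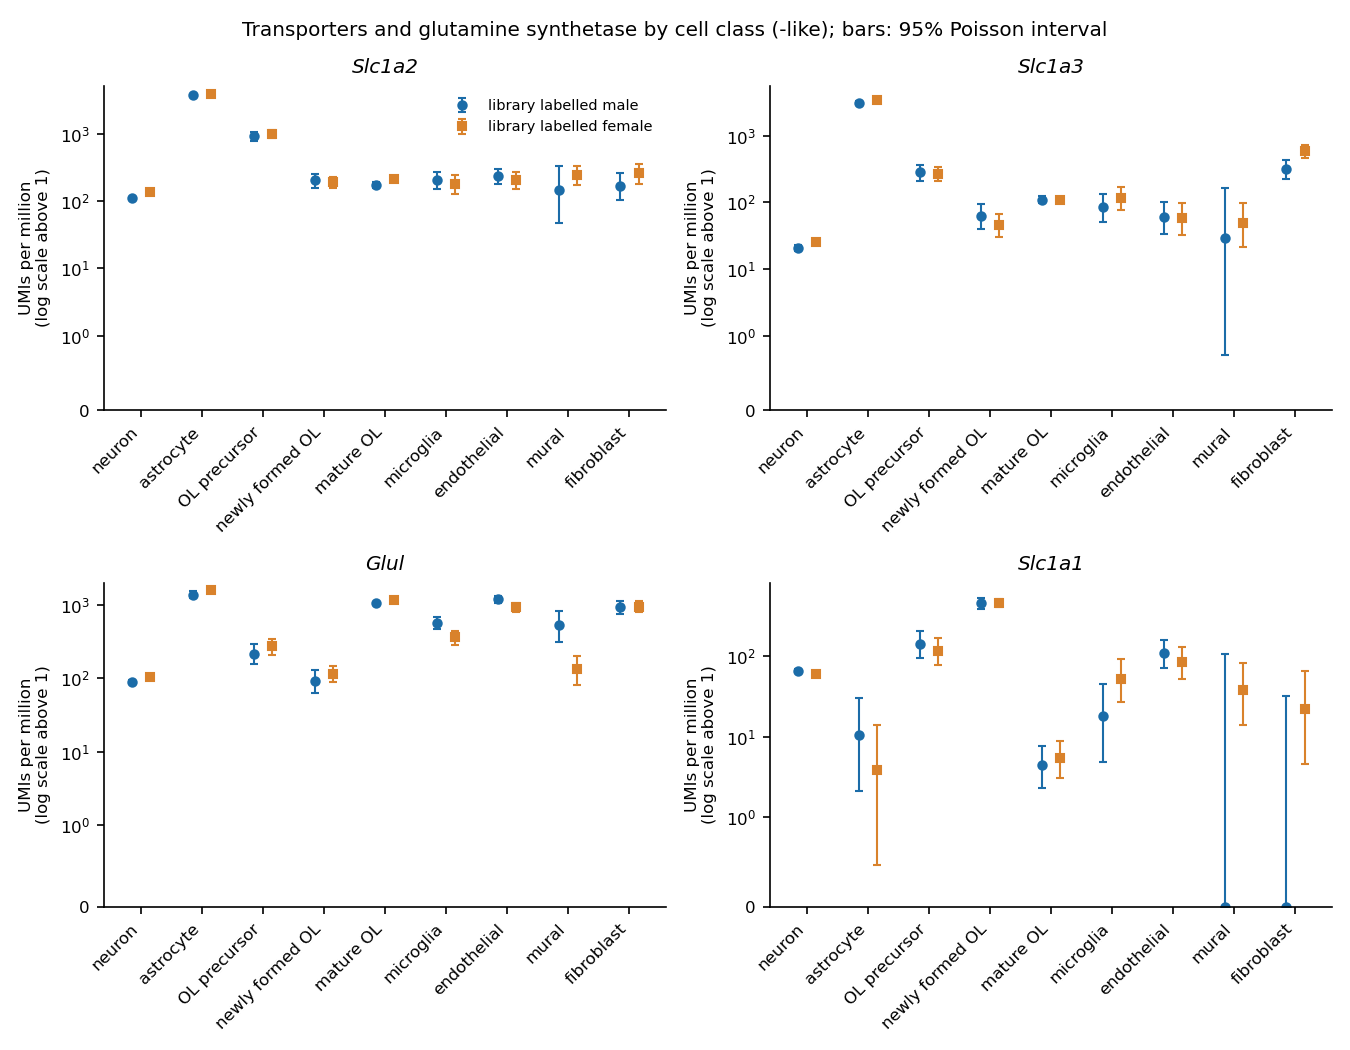
CPM of Slc1a2, Slc1a3, Glul and Slc1a1 (vertical axis, logarithmic above 1 and linear below) in the 9 marker-named classes (horizontal axis; OL, oligodendrocyte), 1 point per library with its 95% Poisson interval. Slc1a2 and Slc1a3 peak in astrocyte-like cells, Glul is at 914 CPM or more in 4 classes, and Slc1a1 peaks in newly formed oligodendrocyte-like cells at 451 and 457 CPM.

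Against neurons, all 5 members that passed the count filter were called, in a comparison in which 52.4% of all 8522 genes tested were called (edgeR's quasi-likelihood test on sums per library and class, library as a block, Benjamini-Hochberg adjusted p under 0.05). Slc1a3 was higher in astrocyte-like cells by 7.33 ± 0.26 on the log2 scale (SE, adjusted p = 2.2e-26, edgeR), the largest difference of the 5. Slc1a2 was higher by 5.15 ± 0.23 (adjusted p = 8.4e-23, edgeR). Glul was higher by 4.13 ± 0.26 (adjusted p = 2.0e-17, edgeR). The other 2 were lower in astrocyte-like cells: Slc17a6 at -3.47 ± 0.35 and Slc1a1 at -3.14 ± 0.48 (adjusted p = 2.3e-11 and 4.7e-07, edgeR). Median mitochondrial shares were 13.1% and 14.2% in astrocyte-like and 7.99% and 8.57% in neuron-like cells, and their part in these differences was not tested. Taken from 1 library at a time, with library totals only, the Slc1a1 difference was -2.44 and -3.65 and that of Slc17a6 -3.99 and -3.29. Among cells with at most 10% mitochondrial UMIs, which left few astrocyte-like cells, Slc1a1 was no longer called (-2.42 ± 1.11, adjusted p = 0.093, edgeR).

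Against oligodendrocyte precursor-like cells, 4 of the 5 members were called, where 21.0% of all genes were. Slc1a3 was higher in astrocyte-like cells by 3.89 ± 0.24, Glul by 2.93 ± 0.28 and Slc1a2 by 2.35 ± 0.21 on the log2 scale (adjusted p at most 3.3e-11, edgeR). Slc1a1 was lower, at -4.01 ± 0.53 (adjusted p = 1.0e-07, edgeR), with 3 and 2 UMIs in all astrocyte-like cells against 28 and 28 in the precursors, and it was -3.57 and -4.62 in 1 library at a time. Slc17a6 did not pass (-0.67 ± 0.69, adjusted p = 0.58, edgeR).

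The astrocyte-like class joined 2 clusters that differed in level. The cluster led by Slc7a10 and Sfrp5 held 110 and 172 cells, with Slc1a2 at 3958 and 4250 CPM, Slc1a3 at 3265 and 3649 CPM and Glul at 1460 and 1736 CPM. The cluster led by Myoc and Gfap held 8 and 13 cells, with Slc1a2 at 1845 and 1744 CPM, Slc1a3 at 1116 and 1270 CPM and Glul at 343 and 247 CPM. In the smaller cluster all 3 genes were thus lower in both libraries, from as few as 8 Glul UMIs in the library labelled male. Clusters within a class are not tested against each other, since they were cut from the same cells. The same limit holds for the tests between classes, since each class is a cluster or a union of clusters of those cells. The members were left out of the clustering, but the p-values between classes take no account of how the classes were made.

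Slc1a2 UMIs in cells other than astrocytes were set beside the astrocyte markers found there. Per UMI of 10 astrocyte markers, Slc1a2 had 0.321 and 0.331 UMIs in astrocyte-like cells, 1.28 and 1.503 in oligodendrocyte precursor-like cells and 0.280 and 0.346 in neuron-like cells. The precursors held more Slc1a2 for their astrocyte marker content than astrocyte-like cells did. This was not particular to them: the ratio was 0.780 and 0.718 in newly formed and 0.749 and 0.805 in mature oligodendrocyte-like cells. It was 0.602 and 0.538 in endothelial-like and 0.5 and 0.494 in mural-like cells. Microglia-like cells had 0.582 and 0.301, and fibroblast-like cells 0.192 and 0.261. The astrocyte-like clusters were unlike in this ratio, at 0.384 and 0.405 (Slc7a10 cluster) and 0.0644 and 0.0671 (Myoc cluster). The value of all neurons lay between them. Among the groups of neurons set out below, it ran from 0.230 and 0.308 (GABA-gate-positive) to 0.56 and 0.561 (Hcrt-high). Per UMI of Slc1a3, Slc1a2 had 1.22 and 1.17 UMIs in astrocyte-like cells, 5.47 and 5.48 in neuron-like cells and 3.29 and 3.72 in the precursors. The ratio in neurons was thus not that of the astrocyte-like cells. The part of RNA from other cells in the low levels was not tested, and droplets without cells were not used here.

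Glul was spread over more classes than the transporters. It was highest in astrocyte-like cells at 1371 CPM (1239 to 1512) and 1584 CPM (1478 to 1696). Mature oligodendrocyte-like cells had 1039 CPM (1001 to 1078) and 1139 CPM (1101 to 1178). Endothelial-like cells had 1184 CPM (1052 to 1328) and 919 CPM (801 to 1049), and fibroblast-like cells had 914 and 942 CPM. The range of endothelial-like levels over the libraries overlapped those of mature oligodendrocyte-like and fibroblast-like cells. The level of astrocyte-like cells was above all 3 in both libraries. In the library labelled male, however, its counting interval overlapped that of endothelial-like cells. Microglia-like cells had 561 and 357 CPM, oligodendrocyte precursor-like cells 216 and 269 CPM, newly formed oligodendrocyte-like cells 92.5 and 114 CPM and neuron-like cells 88.8 and 104 CPM.

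After every cell was thinned to 2000 UMIs, Glul was found in 85.6% and 92.4% of astrocyte-like cells, in 76.3% and 80.2% of mature oligodendrocyte-like cells and in 72.7% and 76.5% of endothelial-like cells. The shares without thinning were 88.1% and 95.1%, 89.6% and 93.4%, and 85.7% and 89.7%. In neuron-like cells the thinned share was 16.4% and 18.1%. Per UMI of the astrocyte markers, Glul had 4.45 and 4.29 UMIs in mature oligodendrocyte-like and 2.99 and 2.41 in endothelial-like cells, against 0.116 and 0.131 in astrocyte-like cells. In the larger astrocyte-like cluster, led by Slc7a10, it was 0.142 and 0.166. The part of astrocyte RNA in the Glul of the other 2 classes was not tested.

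Between astrocyte-like and mature oligodendrocyte-like cells 2 of 5 members were called, where 45.2% of all genes were. Slc1a3 was higher in astrocyte-like cells by 4.46 ± 0.23 and Slc1a2 by 3.89 ± 0.22 on the log2 scale (adjusted p = 2.1e-20 and 4.4e-19, edgeR). Glul did not pass (0.01 ± 0.23, adjusted p = 0.98, edgeR), and this value turned on the scaling. With library totals in place of TMM factors, which moved the median of all genes by 0.45, it was 0.47 ± 0.22 (adjusted p = 0.0693, edgeR), and its sign changed under 5 of the other settings. Slc1a1 and Slc17a6 did not pass either (-0.10 ± 0.76 and 0.70 ± 0.60), from 5 and 12 UMIs in astrocyte-like cells.

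Slc1a1 was highest within the oligodendrocyte lineage. In newly formed oligodendrocyte-like cells it had 156 UMIs or 451 CPM (383 to 527) in 1 library and 280 UMIs or 457 CPM (405 to 514) in the other. The precursors had 141 CPM (93.4 to 203) and 116 CPM (77.1 to 168), endothelial-like cells 109 and 83.9 CPM, and neuron-like cells 65.3 CPM (61.5 to 69.2) and 60.6 CPM (57.2 to 64.1). Mature oligodendrocyte-like cells had 4.42 and 5.42 CPM, with 12 and 16 UMIs in 608 and 595 cells. The newly formed class stood above every other class in both libraries, and the mature class was among the lowest together with astrocyte-like cells (10.3 and 3.85 CPM). After thinning, a UMI of Slc1a1 was found in 56.8% and 52.9% of newly formed, 20.3% and 23.2% of precursor-like, 12.6% and 10.8% of neuron-like and 0.66% and 0.34% of mature oligodendrocyte-like cells.

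The lineage was compared in 2 steps. From precursor-like to newly formed oligodendrocyte-like cells 4 of 5 members were called, where 24.1% of all genes were. Slc1a1 was higher in the newly formed cells by 2.16 ± 0.22 on the log2 scale (adjusted p = 1.5e-10, edgeR), while Slc1a2 was lower, at -1.97 ± 0.23, and Slc1a3 at -2.07 ± 0.30 (adjusted p = 3.2e-09 and 4.7e-07, edgeR). Glul was lower, at -0.89 ± 0.32 (adjusted p = 0.037, edgeR), a call that was lost with DESeq2 (adjusted p = 0.0903), without the library block (0.0725), with at most 10% mitochondrial UMIs (0.47) and with doublets kept (0.237). From newly formed to mature oligodendrocyte-like cells 3 of 5 were called, where 27.9% of all genes were. Slc1a1 was lower in the mature cells by -6.07 ± 0.23 (adjusted p = 2.1e-24, edgeR), Glul was higher by 3.82 ± 0.29 (adjusted p = 1.1e-14, edgeR) and Slc1a3 was higher by 1.504 ± 0.27 (adjusted p = 2.3e-05, edgeR). Taken from 1 library at a time, with library totals only, Slc1a3 was 0.76 and 1.22, Glul 3.47 and 3.31 and Slc1a1 -6.62 and -6.36. Library totals moved the median of all genes by -0.44 in that step, so the size of the Slc1a3 difference turned on the scaling. Slc1a2 did not pass in that step (0.43 ± 0.22, adjusted p = 0.16, edgeR). Its sign turned under library totals (-0.04), and it was called with cells led by their own markers (0.65 ± 0.23, adjusted p = 0.0253, edgeR).

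Within the classes the levels differed between clusters. The newly formed cluster led by Bmp4 and Gpr17, markers of cells that have just left the precursor state, had Slc1a1 at 492 and 567 CPM, and the cluster led by Cnksr3 and Rras2 had 394 and 386 CPM. Of the 3 mature clusters, the one led by Wfdc18 and Nmral1 had Glul at 272 and 261 CPM, near the precursors. The clusters led by Car2 and Hapln2 and by Klk6 and Nkx2-9 had Glul at 1315 and 1416 CPM and at 1157 and 1228 CPM. Slc1a1 was at or below 10.7 CPM in each of the 3. The Klk6 cluster had the most Slc1a3 of the mature clusters, at 198 and 172 CPM against 109 and 118 CPM in the Car2 cluster and 67.4 and 45.9 CPM in the Wfdc18 cluster.

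**Figure D2:**
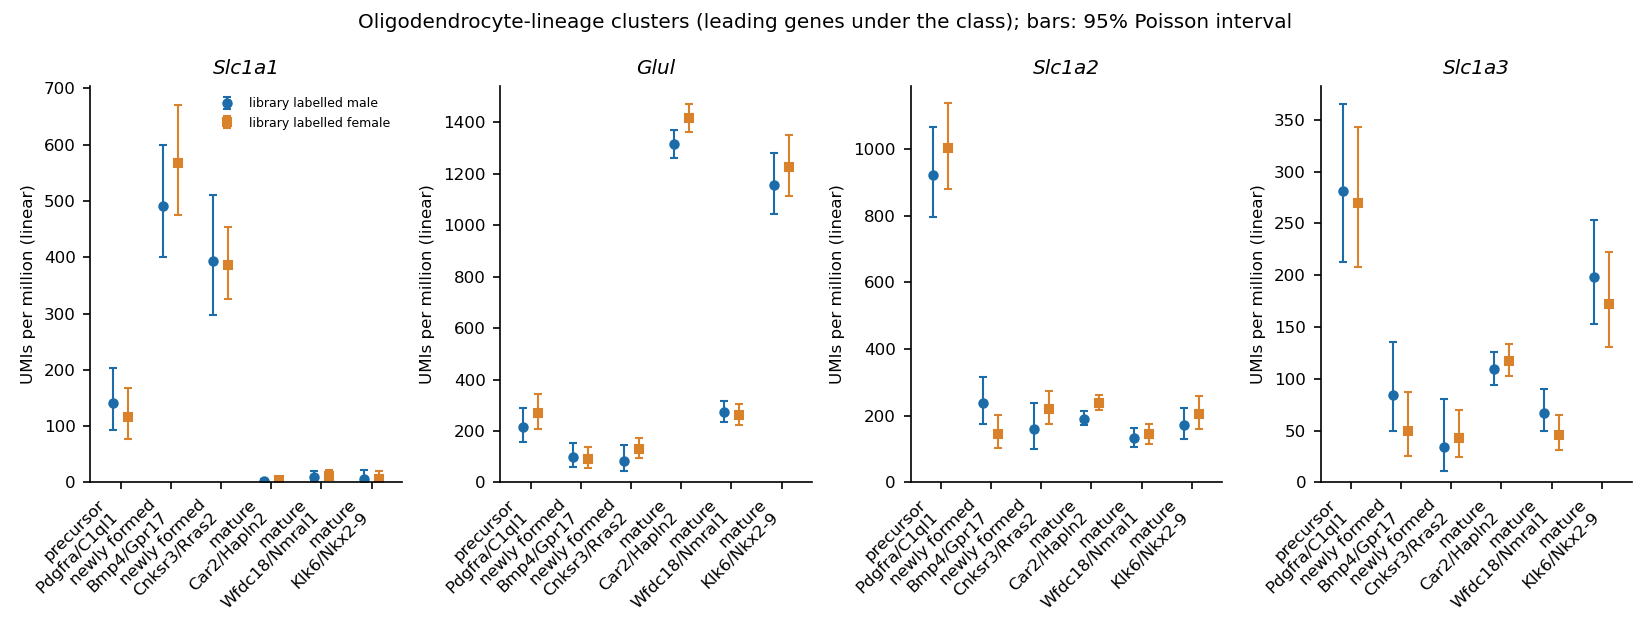
CPM (linear axes from 0) of Slc1a1, Glul, Slc1a2 and Slc1a3 in the 6 clusters of the oligodendrocyte lineage, named by class and 2 leading genes, 1 point per library with its 95% Poisson interval. Slc1a1 is at 386 to 567 CPM in the 2 newly formed clusters and at most 10.7 CPM in the 3 mature ones, while Glul is at 1157 CPM or more in 2 of the 3 mature clusters.

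Slc1a1 shares its locus with 4430402I18Rik, a protein-coding gene on the other strand. They overlap over 20919 bases of chromosome 19, from 28893042 to 28913960, which include the 3' end of Slc1a1, and 2631 of these bases are exonic in both. 4430402I18Rik had 157 and 284 UMIs in newly formed oligodendrocyte-like cells, or 454 and 463 CPM, 221 and 149 CPM in the precursors and 7.37 and 6.77 CPM in mature oligodendrocyte-like cells. Its levels thus ran with those of Slc1a1 over the lineage. The sources used here do not say whether strand was used in counting, so the reads of the 2 genes cannot be told apart with certainty. Slc1a2 holds the antisense gene Gm13872, and Glul overlaps Teddm2 over 285 bases, neither of them at the 3' end. Gm13872 had 0 UMIs in every class, and Teddm2 had 8 and 8 UMIs in mature oligodendrocyte-like cells (2.95 and 2.71 CPM).

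**Figure D3:**
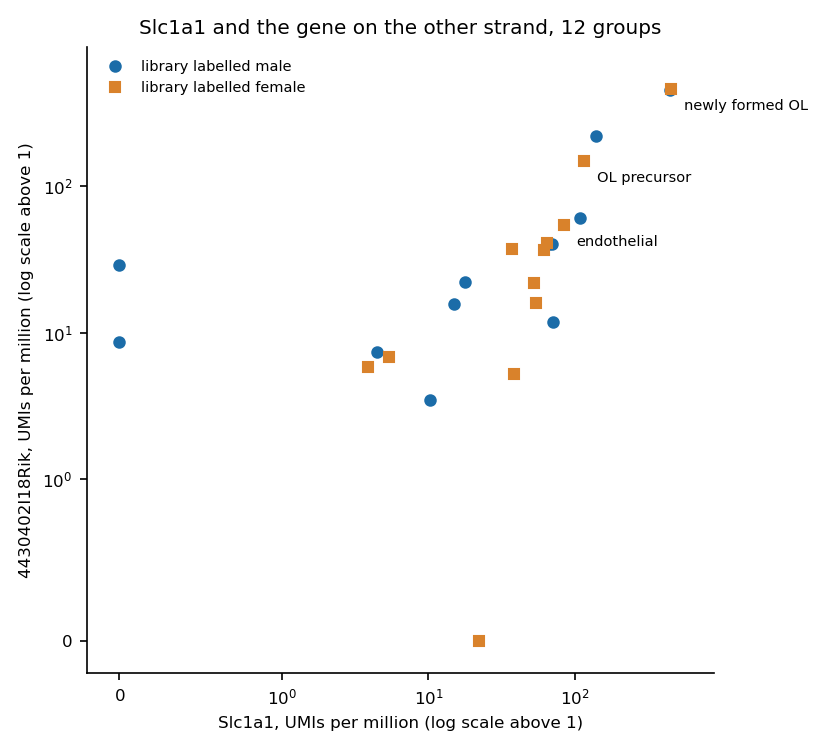
CPM of Slc1a1 (horizontal) and of 4430402I18Rik (vertical), both axes logarithmic above 1 and linear below, in 8 classes and 4 groups of neurons, 1 point per group and library (OL, oligodendrocyte). Both genes are highest in newly formed oligodendrocyte-like cells, at 451 to 463 CPM.

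Among cells of the vessels, the mural-like class was 1 cluster led by Acta2, Pln, Tagln and Myh11, genes of contractile cells of the vessel wall. A cluster led by hemoglobin and pericyte genes was left unnamed and is no part of it, with Glul at 782 and 723 CPM and Slc1a1 at 67.4 and 78.3 CPM. In that cluster endothelial markers summed to 11575 and 10222 CPM and mural markers to 7569 and 5845 CPM. Its levels thus cannot be given to 1 cell type. In mural-like cells Glul had 18 and 21 UMIs (525 and 131 CPM) and Slc1a1 had 0 and 6 UMIs. The mural-like class is small, and its libraries disagreed for Glul beyond counting error (labelled female over labelled male 0.2497, 95% interval 0.127 to 0.497). Of the 5 members 3 were called between mural-like and endothelial-like cells, where 22.0% of all genes were. Glul was lower in mural-like cells by -2.59 ± 0.35 on the log2 scale (adjusted p = 2.1e-07, edgeR), -1.14 in the library labelled male and -2.78 in the other. Neuron markers summed to 1749 and 5241 CPM in mural-like cells, and neuron-like cells had 88.8 and 104 CPM of Glul. The part of neuronal RNA in the Glul call was not tested. Slc1a1 was lower, at -2.00 ± 0.59 (adjusted p = 0.011, edgeR), and the call was lost under 3 settings: library totals, these 2 classes alone, and thinned cells (adjusted p = 0.0552, 0.0513 and 0.1, edgeR).

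Slc17a6 was called higher in mural-like cells by 3.14 ± 0.92 (adjusted p = 0.011, edgeR), from 14 against 3 UMIs. The ratio of those counts was 11.7 with a counting interval of 3.25 to 63.2. The neuron markers moved with it: the 8 markers summed to 1749 and 5241 CPM in mural-like against 509 and 676 CPM in endothelial-like cells, and each was found on average in 32.6% of mural-like cells. Slc17a6 had 16.7 and 15.5 UMIs per 1000 neuron marker UMIs in mural-like cells and 25.6 and 21.8 in neurons. The part of neuronal RNA in this call was not tested. The call was lost with doublets kept (0.98 ± 0.67, adjusted p = 0.387, edgeR) and with thinned cells (2.39 ± 1.78, adjusted p = 0.434, edgeR), and with these 2 classes alone Slc17a6 did not pass the count filter.

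Single cells decided other low values of Slc17a6 outside neurons. In the library labelled male all 4 of its UMIs among microglia came from 1 cell, as did all 7 among fibroblast-like cells of the other library. In the 45 microglia-like cells of the library labelled female, where the neuron markers summed to 4514 CPM against 1789 CPM in the other library, Slc17a6 had 15 UMIs in 8 cells.

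Slc17a6 (VGLUT2), the vesicular transporter typical of the hypothalamus, was counted in 818 (40.3%) and 926 (41.2%) neuron-like cells, with up to 29 and 27 UMIs in a cell. Its level in all neurons was 192 CPM (186 to 199) and 179 CPM (173 to 185). In the shallower mature oligodendrocyte-like cells, which should lack it, 2.14% and 3.70% held a UMI, and after thinning to equal depth the shares were 25.1% and 23.1% of neurons against 0.66% and 2.02% of those glia. The median depth was 7735.5 and 8126 UMIs in neurons and 4164.5 and 4643 UMIs in the glia.

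Neurons were divided by genes outside the set. Hcrt-high and Pmch-high neurons drew at least 0.3% of their UMIs from the named peptide gene, and numbered 83 and 83, and 85 and 61. The others were divided by a UMI of Slc32a1, the vesicular GABA transporter, into GABA-gate-positive (1076 and 1231) and GABA-gate-negative neurons (788 and 875). A cell without a UMI of Slc32a1 may still express it, so that the negative group is not free of GABAergic neurons. Slc17a6 was at 444 CPM (427 to 461) and 396 CPM (382 to 411) in GABA-gate-negative, 251 and 240.5 CPM in Hcrt-high, 103 and 101 CPM in Pmch-high and 29.6 CPM (26.1 to 33.5) and 36.4 CPM (32.8 to 40.1) in GABA-gate-positive neurons. The order of the 4 groups was the same in both libraries and no 2 of them overlapped.

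The difference between the GABA gates was 3.65 ± 0.08 on the log2 scale (adjusted p = 3.1e-25, edgeR). It was 3.90 and 3.44 in 1 library at a time, and 4.71 with a gate that used Gad2 beside Slc32a1. Of the 6 members tested in neurons 2 were called, where 8.90% of all 12554 genes were, and the second was Slc17a8 (2.80 ± 0.34, adjusted p = 3.5e-07, edgeR), which did not pass the count filter in thinned cells. The uptake and glutamine genes did not pass: Slc1a1 differed by 0.01 on the log2 scale (95% interval -0.17 to 0.19), Slc1a2 by -0.06 (-0.19 to 0.06), Slc1a3 by 0.24 (0.01 to 0.48) and Glul by 0.06 (-0.07 to 0.19). For Slc1a3 the difference was 0.50 and 0.05 in 1 library at a time, and with at most 10% mitochondrial UMIs it was called (0.47 ± 0.13, adjusted p = 0.0215, edgeR). Slc1a1 had 67.1 and 64.6 CPM in GABA-gate-negative and 69.6 and 61.3 CPM in GABA-gate-positive neurons.

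Hcrt-high and Pmch-high neurons were set apart by their peptide genes alone and were not gated on Slc32a1. They held 37 and 28 UMIs of it, or 14.8 ± 0.11 and 11.8 ± 5.90 CPM (SD, n = 2 libraries), where the GABA-gate-negative neurons have 0 by the gate and the GABA-gate-positive neurons had 453 ± 54.2 CPM. Hcrt-high neurons held less Slc17a6 than GABA-gate-negative neurons, at -0.52 ± 0.08 on the log2 scale (adjusted p = 9.9e-06, edgeR), and less Slc1a1, at -0.99 ± 0.21 (adjusted p = 0.00024, edgeR). These were 2 of 6 members, where 40.5% of all genes were called. Slc1a1 had 17 UMIs in the 83 Hcrt-high neurons of the library labelled male (14.9 CPM, 8.69 to 23.9) and 52 in the 83 of the other (38.4 CPM, 28.7 to 50.3), so that its difference was -2.13 in the first and -0.74 in the second. Library totals shifted the median of all genes by -0.26 in this comparison and brought the calls to 5 of 6 members. With thinned cells the Slc17a6 difference was -0.31 ± 0.16 and did not pass (adjusted p = 0.204, edgeR).

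Pmch-high neurons held still less Slc17a6, at -1.78 ± 0.10 against GABA-gate-negative neurons (adjusted p = 1.2e-14, edgeR), as 1 of 6 members where 35.9% of all genes were called. A UMI was nevertheless found in 68.2% and 72.1% of Pmch-high neurons without thinning and in 20.2% and 23.0% after it, against 45.8% and 44.6% of thinned Hcrt-high neurons. Directly compared, Hcrt-high neurons had more Slc17a6 than Pmch-high neurons by 1.26 ± 0.13 (adjusted p = 2.3e-09, edgeR) and less Slc1a1, at -1.21 ± 0.25 (adjusted p = 0.00029, edgeR), 2 of 6 members where 27.9% of all genes were called. The Slc1a1 value was -2.22 and -0.51 in 1 library at a time. These 3 comparisons share groups and are not independent of each other.

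**Figure D4:**
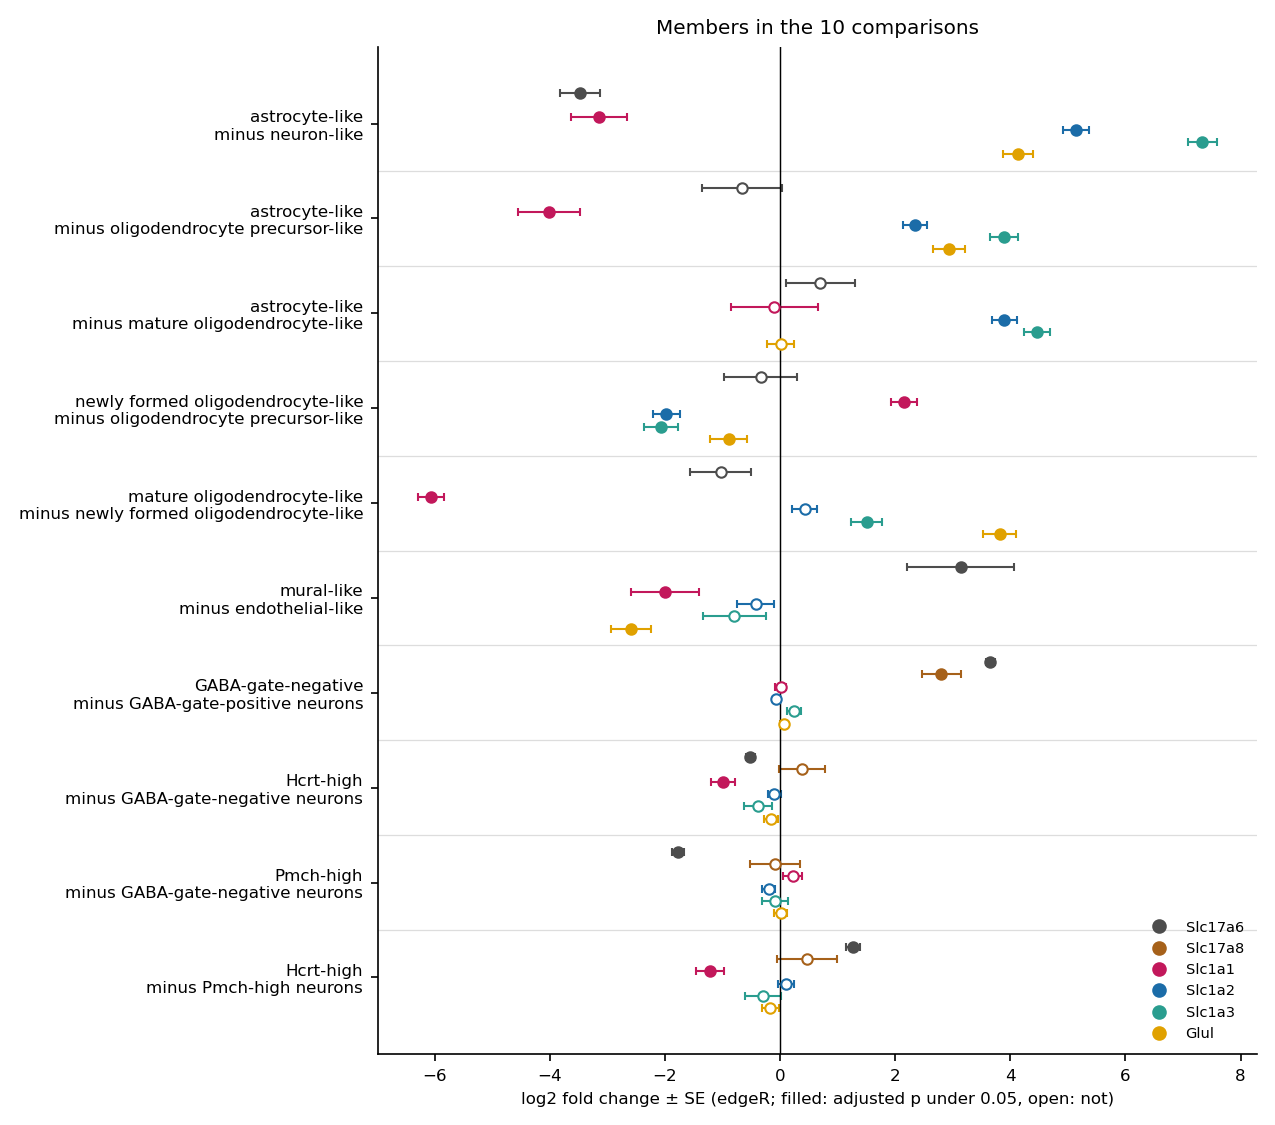
Log2 fold change with its SE (horizontal) of the members that passed the count filter in the 10 comparisons (rows), with filled points for an adjusted p under 0.05 and open points otherwise. Slc1a2, Slc1a3 and Glul move together from neurons to astrocyte-like cells, Slc1a1 moves by 2.16 and -6.07 in the 2 steps of the oligodendrocyte lineage, and Slc17a6 is called in all 4 comparisons of neurons.

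Slc17a6 divided the 13 neuron-like clusters into 7 with 126 CPM or more in both libraries and 6 with 47.6 CPM or less. The clusters led by Trh and Prdm8 (604 and 452 CPM), Nrn1 and Sim1 (540 and 480 CPM), Fezf1 and Adcyap1 (517 and 468 CPM) and Prokr2 and Synpr (489 and 453 CPM) were highest, with ranges that overlapped. The cluster led by Ebf3 and Nxph4 had 404 and 385 CPM. Among the lowest was the cluster led by Nts and Crh, with 1 and 2 UMIs in 39 and 40 cells. In the Fezf1 cluster 94.1% and 96.8% of cells held a UMI of Slc17a6, and after thinning 64.7% and 52.1% did.

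Slc17a8 (VGLUT3), known from neurons that release glutamate beside another transmitter, had 85 and 65 UMIs in 57 and 45 neurons, or 4.94 CPM (3.95 to 6.11) and 3.23 CPM (2.49 to 4.12). Of these cells 77.2% and 80.0% also held Slc17a6, where 40.3% and 41.2% of all neurons did, and 21.1% and 20% held Slc32a1, where 53.8% and 55.6% did. The cells with Slc17a8 were deeper than the rest, at a median of 8725 and 10740 UMIs, and the overlap is a description for that reason. The cluster led by Prokr2 and Synpr, whose leading genes include the nitric oxide synthase Nos1, held 40 of the 150 UMIs (26.7%) in 14 and 12 cells. The Fezf1 cluster held 14 UMIs, from 7 cells, in the library labelled male and 0 in the other library, where 3 UMIs would be 3.30 CPM.

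Slc17a7 (VGLUT1), the vesicular transporter typical of the cortex, was rare, with 16 and 8 UMIs in 8 and 6 neurons, and it passed the count filter in neither fit. The cluster led by Nrn1 and Sim1 held 13 of these UMIs in 6 cells, and the cluster led by Trh and Prdm8 held 7 in 4 cells, and 1 cell alone held 5. Of the 14 cells, 6 and 4 also held Slc17a6. In astrocyte-like cells it was at 0 in both libraries, where 3 UMIs would be 10.3 and 5.78 CPM.

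**Figure D5:**
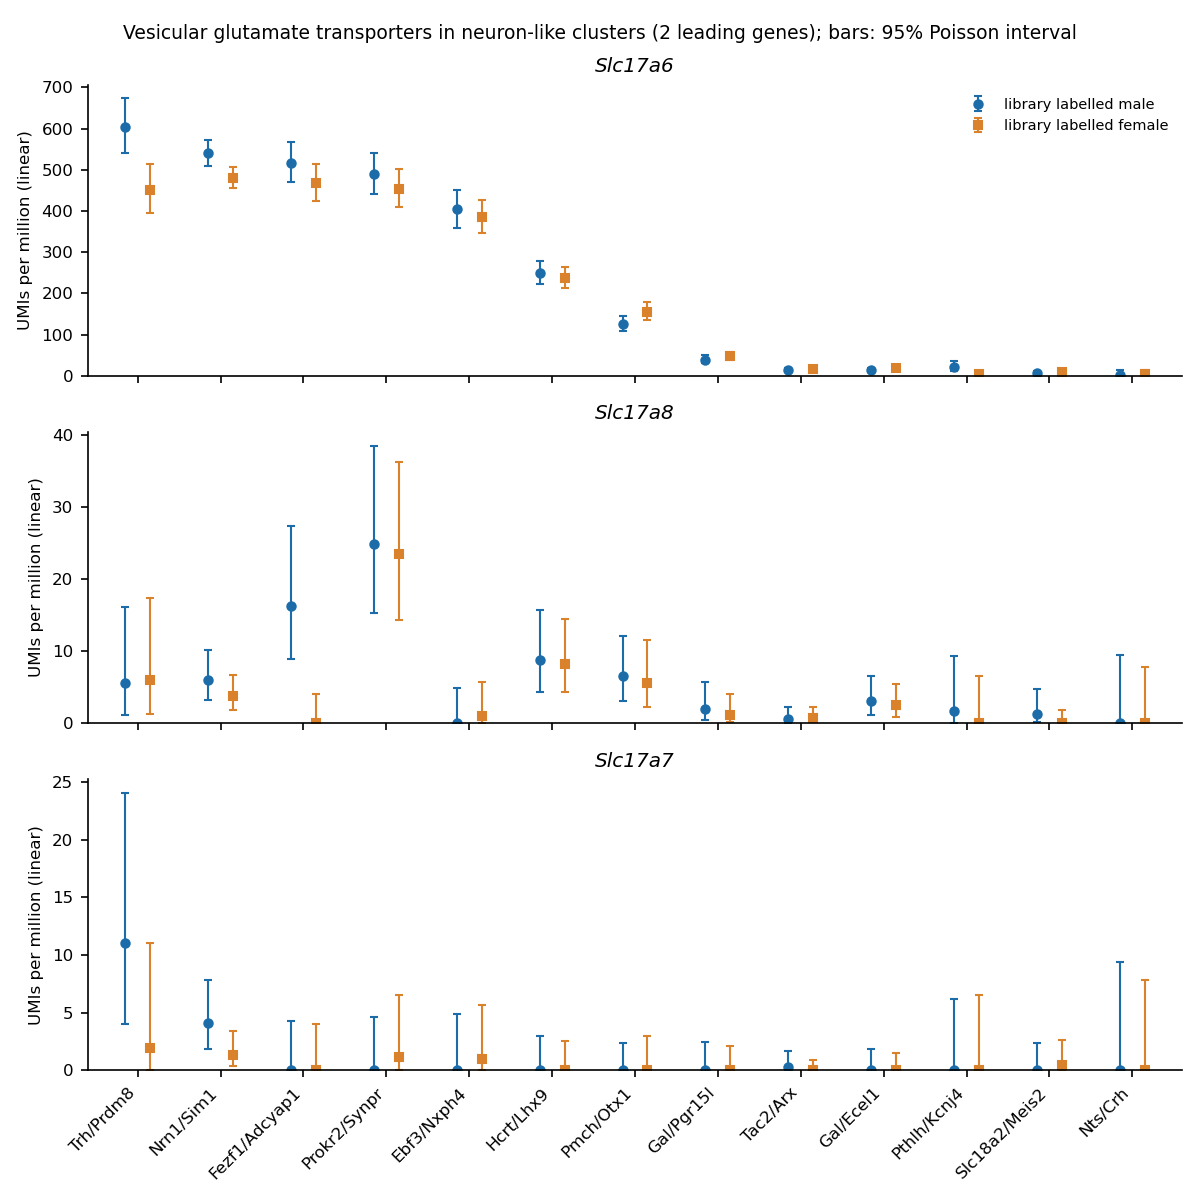
CPM (linear axes from 0, with different ranges) of Slc17a6, Slc17a8 and Slc17a7 in the 13 neuron-like clusters, named by 2 leading genes and ordered by mean Slc17a6, 1 point per library with its 95% Poisson interval. Slc17a6 separates 7 clusters from 6, and Slc17a8 is highest in the Prokr2 and Synpr cluster, at 24.9 and 23.5 CPM.

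The genes most like each member were ranked by Pearson's r of log2(CPM + 10) over 12 groups, 8 classes and the 4 groups of neurons, which share 2 libraries. For Slc1a2 they were Cyp2j9 (r = 0.98), Tlcd1 (0.97) and Kcnj16 (0.97). For Slc1a3 they were Oplah (0.97), Adhfe1 (0.96) and the bicarbonate cotransporter Slc4a4 (0.95). For Glul they were Sepp1 (0.94), Pon2 (0.92) and Tor1aip1 (0.89), and for Slc1a1 the overlapping 4430402I18Rik (0.92), Cdv3 (0.91) and Fam3c (0.89). For Slc17a6 they were Cacna2d1 (0.91), Calb2 (0.90) and Ngb (0.89) over the groups, and Bdnf (0.91), Chst8 (0.88) and Nhlh2 (0.82) over the 13 neuron-like clusters. Slc17a8 was nearest to Nos1 (0.89), Znhit2 (0.89) and Igsf21 (0.82) over the clusters. Slc17a7 was nearest to Uncx (0.98), Sall3 (0.96) and Prdm8 (0.96), from 24 UMIs in all.

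With 1 library per label there is no test between them. The member level of the library labelled female was divided by that of the other in 50 pairs of a member and a class, and in 15 of these the 95% counting interval did not include 1, with the library labelled female higher in 10. In neurons Slc1a2 was 1.23 times (1.16 to 1.31), Slc1a3 1.23 times (1.07 to 1.42) and Glul 1.17 times (1.10 to 1.25) as high in the library labelled female. The astrocyte markers summed to 400 and 401 CPM in those neurons. Slc17a6 was 0.931 times as high (0.888 to 0.976), and in fibroblast-like cells Slc1a3 was 1.85 times as high (1.24 to 2.82).

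A list of 31 other genes of glutamate and glutamine handling was counted in the same fits. Unlike the members, these genes were not kept out of the clustering. They could thus help to form the classes between which they were tested, and Gad1, Gad2 and Slc32a1 were among the leading genes of neuron-like clusters. Adjusted p-values of the list between classes take no account of this. Of 24 tested between astrocyte-like and neuron-like cells, 11 were higher and 10 lower in astrocyte-like cells, where 52.4% of all genes were called, with a median log2 difference of -0.30 against -0.14 over all genes. The highest were the cystine-glutamate exchanger Slc7a11 (7.54 ± 0.24) and the glutamine transporter Slc38a3 (7.52 ± 0.22). Gad1 (-2.74 ± 0.33) and Gad2 (-2.54 ± 0.32), which make GABA from glutamate, were among the lower ones. Against the precursors 11 were higher and 2 lower, where 21.0% of all genes were called, with a median of 1.01 against 0.04 over all genes. Against mature oligodendrocyte-like cells 14 were higher and 1 was lower, where 45.2% of all genes were called, with a median of 1.26 against 0.03.

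From precursor-like to newly formed oligodendrocyte-like cells 1 of the 24 was higher and 6 were lower, where 24.1% of all genes were called (median -0.40, all genes 0.00), and the lower ones include Slc38a3 (-4.03 ± 0.43). From newly formed to mature cells 1 was higher and 3 were lower (median -0.06, all genes 0.02), a smaller share than the 27.9% of all genes that were called. The one was Slc38a2 (2.09 ± 0.29), a sodium-coupled neutral amino acid transporter that carries glutamine, whose level was 292 ± 21.4 CPM (SD, n = 2 libraries) in mature and 99.9 ± 46.7 CPM in newly formed cells. Between mural-like and endothelial-like cells 10 were higher and 4 lower, where 22.0% of all genes were called (median 1.19, all genes -0.09). The higher ones include the neuronal genes Slc32a1 (3.13 ± 0.78) and Gad2 (2.34 ± 0.46), with 0 and 144 CPM and 29.2 and 499 CPM in mural-like cells, beside the neuron marker sums given above. The part of neuronal RNA in the 10 higher calls was not tested. With doublets kept Slc32a1 was at 1.07 ± 0.49 and lost its call (adjusted p = 0.155, edgeR). The lower ones include Slc7a5 (-5.48 ± 0.37) and Slc38a3 (-6.29 ± 0.62), carriers of the blood-brain barrier.

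In neurons, Slc32a1 was left out of the list wherever it had set the groups. Between the GABA gates 1 of 26 was higher in the negative group and 6 were lower, where 8.90% of all genes were called (median -0.14, all genes -0.00), with Gad2 (-3.01 ± 0.08) and Gad1 (-2.03 ± 0.07) at the end. Other lower ones were the aspartate aminotransferases Got1 (-0.36 ± 0.06) and Got2 (-0.19 ± 0.06) and the mitochondrial carrier Slc25a12 (-0.19 ± 0.06). Without the library block all 3 lost their calls (adjusted p = 0.104, 0.502 and 0.457, edgeR). Got2 and Slc25a12 also lost them with DESeq2 (adjusted p = 0.914 and 1.0) and with the gate that used Gad2 (adjusted p = 0.107 and 0.114, edgeR). In Hcrt-high neurons 8 of 26 were higher and 7 lower than in GABA-gate-negative neurons, where 40.5% of all genes were called (median -0.08, all genes -0.02). The neutral amino acid transporter Slc1a4 was higher by 0.91 ± 0.13, and Gad1 was lower, at -1.17 ± 0.14. Slc1a4 lost its call with thinned cells, at 0.65 (adjusted p = 0.172 in edgeR), and was at 0.59 without the library labelled female and 0.71 without the other. For Pmch-high neurons the counts were 3 higher and 13 lower of 26, where 35.9% of all genes were called (median -0.29, all genes -0.03), and Gad1 was higher by 2.18 ± 0.08 while Gad2 was lower, at -1.76 ± 0.18. The glutamine transporter Slc38a1 was at 104 ± 11.7 CPM in Pmch-high and 258 ± 1.97 CPM in Hcrt-high neurons (SD, n = 2 libraries), a difference of 1.31 ± 0.11 on the log2 scale, and in that comparison 6 of 27 were higher and 3 lower in Hcrt-high neurons, where 27.9% of all genes were called (median 0.23, all genes 0.00). Each of the list's genes named here passed at an adjusted p of at most 0.046 in edgeR's quasi-likelihood test.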

How the data were processed

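Raw UMI counts per gene and barcode were deposited as 1 sparse matrix a library, for 2 libraries. Per the submitters' processing notes the counts come from Cell Ranger 2.2.0 and GRCm38/mm10. How cells were called, whether strand was used and which annotation release served is not given in the sources used here.

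Cells with at least 500 genes and at most 20% mitochondrial UMIs were kept, which removed 163 barcodes from each library, and the cells with the highest Scrublet scores were then removed as a share of 0.8% for every 1000 barcodes (95 and 115 cells). Cells were clustered with scanpy 1.11.5 (2000 variable genes without the 7 members, 30 principal components, 15 neighbours, Leiden resolution 1.0) and clusters were named from marker lists that hold no member. Counts were summed per library and group, and 9 classes (18 sums) and 4 groups of neurons (8 sums) were fitted with edgeR 4.0.16 (filterByExpr, TMM, library as a block, quasi-likelihood test, Benjamini-Hochberg adjustment over all genes tested). The sums of 1 library come from the same pool of animals, which is what the block stands for. The block takes up the mean difference between the pools. The spread that remains is how far differences between groups vary from 1 library to the other, and it is shared over all groups of a fit. Alternatives used DESeq2 1.42.0, library totals, no filter, no block, the compared groups alone, at most 10% mitochondrial UMIs, doublets kept, cells thinned to 2000 UMIs, cells led by their own markers, other GABA gates and 1 library at a time.

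The members and gene lists were chosen with earlier results of these data known. All members were named in every group, of the 31 listed genes at most 5 called genes a direction that reached 20 CPM where they were higher (some of these are not reported here), and the 3 genes most like a member among those with at least 50 CPM in a group. The scripts were tested on simulated data. Promoter sequences are from RefSeq (GRCm38.p6).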

Additional observations from a re-analysis of the deposited data

How the results depend on the processing

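Of 54 member results 28 were called, and of their 245 tested alternatives (leaving out a library not counted) 234 kept direction and call, 11 lost the call and 0 changed sign. Of 227 alternatives of results not called, 9 gained a call and 28 changed sign. The gains were Slc17a6 -1.49 (mature minus newly formed, totals), Slc1a2 0.65 (same step, own markers), Slc1a3 -1.59 (mural-like, doublets kept), Slc1a3 0.47 (GABA gates, 10% mitochondrial), Slc1a2 -0.36, Slc1a3 -0.64 and Glul -0.42 (Hcrt-high, totals), Slc1a2 -0.46 (Pmch-high, totals) and Slc1a1 0.39 (Pmch-high, 10% mitochondrial). At most 10% mitochondrial UMIs leaves fewer cells and thinning fewer UMIs, so that fewer genes were tested, and the cause of the other changes was not tested. Library totals moved the median of all genes by -0.44 to 0.45, and DESeq2 by 0.60 in astrocyte-like minus neuron-like cells. The samples are paired by library, since all groups of a library come from 1 pool. Without that replicate block the genes called between the GABA gates fell from 1117 to 353, and counts elsewhere stayed within 1.5 times. The one member call it changed is that of Glul from precursor-like to newly formed cells.

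With at most 10% mitochondrial UMIs the genes called were 1933 (astrocyte-like minus neuron-like), 561 (minus precursor-like), 1599 (minus mature oligodendrocyte-like) and 1586 (mature minus newly formed), against 4463, 1786, 3849 and 2381, and Pmch-high neurons had 2 members called. With thinned cells they were 1261 (newly formed minus precursor-like), 885 (mural-like, 1 member), 485 (GABA gates, 1 member), 1265 (Hcrt-high, 1 member), 772 (Pmch-high) and 600 (Hcrt-high minus Pmch-high). Mural-like minus endothelial-like had 1105 genes (1 member) with those groups alone and 1215 with doublets kept. Between the GABA gates DESeq2 called 202, those groups alone 2109 and the gate of the earlier analysis 3134. DESeq2 called 2908 in Pmch-high neurons. Library totals gave 5 members in Hcrt-high and 2 in Pmch-high neurons.

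Signs changed as follows. Astrocyte-like minus precursor-like: Slc17a6 1.504 (10% mitochondrial). Astrocyte-like minus mature: Slc1a1 0.033 (DESeq2), 0.36 (totals), 0.21 (10% mitochondrial), 0.57 (doublets kept) and 1.31 (thinned), and Glul -0.12 (no filter), -0.052 (groups alone), -0.034 (10% mitochondrial), -0.013 (thinned) and -0.012 (own markers). Newly formed minus precursor-like: Slc17a6 1.47 (10% mitochondrial). Mature minus newly formed: Slc1a2 -0.041 (totals). Mural-like: Slc1a2 0.29 (thinned) and Gad1 -1.67 without the library labelled female (3.09 without the other). GABA gates: Slc1a2 0.016 (10% mitochondrial), Slc1a1 -0.01 (doublets kept) and -0.022 (earlier gate), Glul -0.029 (earlier gate). Hcrt-high: Slc17a8 -0.38 (10% mitochondrial), and, with 1 library at a time, Slc3a2 -0.079 to 0.37 and Slc25a22 -0.017 to 0.29, negative without the library labelled female. Pmch-high: Slc1a1 -0.050 and Glul -0.25 (totals), Glul -0.030 (no filter), and with thinned cells Glul -0.43, Slc1a2 0.46, Slc1a3 0.45 and Kcnj10 0.22. Hcrt-high minus Pmch-high: Slc17a8 -0.34 (10% mitochondrial), and with thinned cells Slc1a2 -0.54 and Glul 0.32.

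Mural-like minus endothelial-like could not be run with at most 10% mitochondrial UMIs, where no cluster took those names, or with cells led by their own markers, where a library kept too few mural-like cells.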

Other observations

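A cluster of 14 and 17 cells, led by Gm9881 and Mmp14, was left unnamed: astrocyte markers were each found on average in 61.6% of its cells and mature oligodendrocyte markers in 88.6%. Its levels were 1557 and 1489 CPM of Slc1a2, 893 and 1129 CPM of Slc1a3 and 1286 and 1539 CPM of Glul, and Slc1a1 had 0 and 1 UMIs. The other unnamed cluster, led by hemoglobin genes and by the pericyte genes Kcnj8, Higd1b and Abcc9, held 68 and 90 cells. Endothelial markers were each found on average in 86.6% of its cells. Glul was at 782 and 723 CPM and Slc1a1 at 67.4 and 78.3 CPM there, with 23 and 39 UMIs of Slc1a1.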
